A study of Mus musculus with 48 samples.

Results

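Corticosteroid signalling in mouse kidney was followed over the day through 8 genes. They are the glucocorticoid receptor Nr3c1, the mineralocorticoid receptor Nr3c2, the enzymes Hsd11b1 and Hsd11b2, and the hormone-induced genes Tsc22d3, Fkbp5, Zbtb16 and Klf9. The 8 genes were given as a list of symbols and matched to Ensembl identifiers, and all 8 were found among the 12423 genes that have a value in both assays. Kidneys came from male C57BL/6JRj mice of 11 to 12 weeks under 12 h light and 12 h dark, where Zeitgeber time ZT00 is lights-on and ZT12 is lights-off. The labels name no transgene and no treatment, and the groups differ by time of day and assay. At each of 12 timepoints, 2 h apart, there were 2 replicate pools of 2 mice (48 mice in 24 pools), and each pool gave 1 RNA-seq and 1 RPF-seq library. RPF-seq sequences the mRNA fragments protected by ribosomes, so its values follow translation, and RNA-seq of the same pool follows transcript abundance. Values are RPKM over the coding sequence (reads per kilobase, scaled to library size), and translation efficiency (TE) is the RPF value divided by the RNA value of the same pool.

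Glucocorticoids are released from the adrenal cortex with a daily rhythm that in nocturnal animals crests around the onset of darkness. The hormone enters cells and binds the glucocorticoid receptor, which is held ready by chaperones in the cytosol, moves to the nucleus and switches on target genes. The mineralocorticoid receptor binds aldosterone and glucocorticoids alike. In aldosterone-responsive cells of the distal nephron the enzyme encoded by Hsd11b2 inactivates corticosterone and so leaves the receptor to aldosterone, which controls sodium retention. Hsd11b1 encodes the enzyme that works mainly in the other direction and regenerates active hormone.

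The time labels were checked with 2 clock genes that are not among the 8. RNA of Dbp, a clock output gene, peaked at 10.5 h with a 42.1-fold rhythm, and RNA of Arntl, which encodes BMAL1, peaked at 22.5 h with a 24.98-fold rhythm. Read depth behind the values, relative to the median library of an assay, was estimated from the steps between the lowest values and ran from 0.598 to 2.03 in RNA-seq and from 0.70 to 1.58 in RPF-seq. The RNA-seq libraries of ZT18 to ZT22 were shallow, at 0.598 to 0.833 of the median. On this estimate the 8 genes rested on 47 reads (Zbtb16 RNA, lowest library) to 10324 reads (Hsd11b1 RPF, highest library). The RPF library of ZT04 replicate 2 listed 125 genes at 0, against at most 14 in the other RPF libraries. Markers of the kidney's own cells were present, with a median summed RNA level of 50225 RPKM for 8 proximal tubule markers and 201.8 RPKM for 4 principal cell markers. None of the 7 adrenal cortex markers was among the genes used here. Fat markers varied between RNA libraries, Adipoq from 0.128 to 3.98 RPKM and Cfd from 1.83 to 38.8 RPKM. This variation followed time of day, with RNA peaks at 3.95 h for Adipoq (3.58-fold) and 5.00 h for Cfd (4.87-fold). Fabp4, a more abundant fat marker, had an RNA fold of 1.15. The part of fat in the values of the 8 genes was not tested. In whole organs, fewer cells of a type and less RNA per cell cannot be told apart.

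Over the day, the hormone-induced genes Tsc22d3 and Zbtb16 rose and fell in both transcripts and footprints with crests early in the dark phase, whereas both receptor genes stayed below the threshold in every assay. A rhythm was called with limma from the 24-h cosine and sine terms at a Benjamini-Hochberg FDR under 0.05, together with a fitted peak-to-trough fold of at least 1.5 for RNA and RPF and with no fold cutoff for TE. In RNA, 3 of the 8 genes were called (Tsc22d3, Zbtb16 and Hsd11b2), where 10.2% of the 11863 genes tested were. In RPF, 3 of 8 were called (Tsc22d3, Zbtb16 and Fkbp5), where 7.58% of all genes tested were. In TE, 4 of 8 were called (Hsd11b2, Fkbp5 and Tsc22d3 with peaks in the dark phase, and Hsd11b1 with a peak in the light phase), where 17.1% of all genes tested were, 8.08% with a dark phase peak and 9.01% with a light phase peak. All 8 genes passed the low-value filter (in each assay, a median across libraries of no less than 0.5 RPKM), and their RNA folds ran from 1.07 to 4.37, beside a median of 1.205 over all genes tested.

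**Figure D1:**
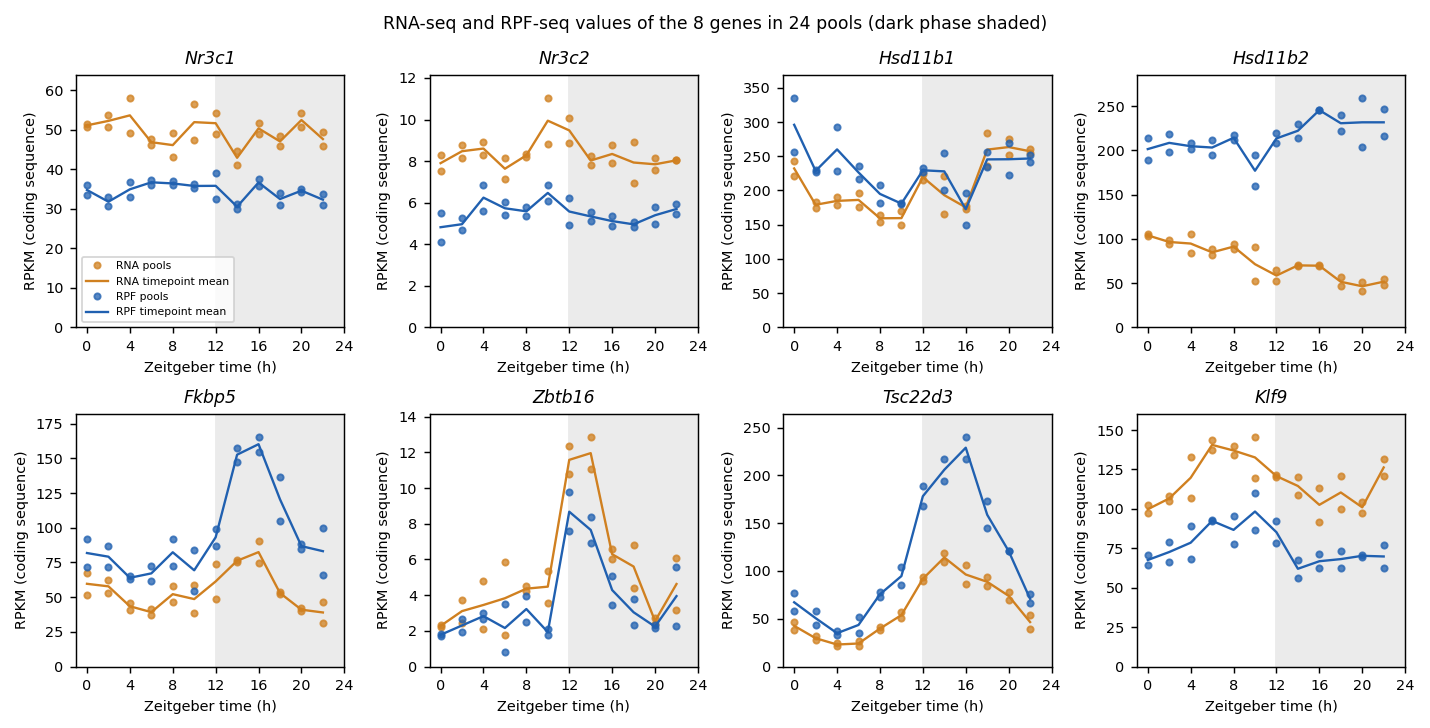
RPKM of the 8 genes against Zeitgeber time in hours, with a point for each of the 24 RNA-seq (orange) and 24 RPF-seq (blue) libraries, lines through the means of the 2 pools at a timepoint, and the dark phase shaded. Tsc22d3, Zbtb16 and Fkbp5 footprints crest between ZT12 and ZT16, while Hsd11b2 transcripts decline from 103.9 RPKM at ZT00 to 46.3 RPKM at ZT20 without a matching decline of its footprints.

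**Figure D2:**
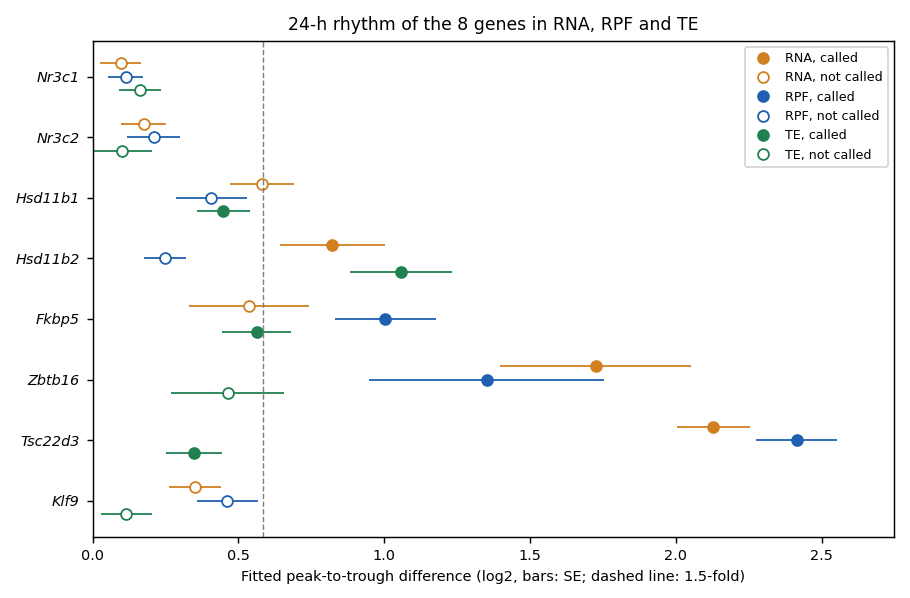
Fitted peak-to-trough difference (log2) of each gene in RNA (orange), RPF (blue) and TE (green), with bars for the SE of the fit over 24 pools and filled points for called rhythms; the dashed line marks 1.5-fold. Tsc22d3 and Zbtb16 lie farthest right in RNA and RPF, and Hsd11b2 lies farthest right in TE.

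The receptor genes varied little. Nr3c1 (chr18:39410545-39519421, minus strand of GRCm38) ran from 41.1 RPKM at ZT14 replicate 1 to 58.2 RPKM at ZT04 replicate 2 in RNA, with a median of 49.2 RPKM. Its footprints ran from 30.0 to 39.1 RPKM, with a median of 34.6 RPKM. The fitted peak-to-trough fold of Nr3c1 was 1.07 in RNA (limma adjusted p = 0.476) and 1.08 in RPF (limma adjusted p = 0.33). In both assays its lowest timepoint mean fell at ZT14, with RNA at 41.1 and 44.8 RPKM and footprints at 31.1 and 30.0 RPKM in the 2 pools. Those 4 values lay below both pools of the highest timepoint of their assay.

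Nr3c2 (chr8:76899442-77245012, plus strand) was far less abundant, with RNA from 6.92 to 11.1 RPKM (median 8.22) and footprints from 4.11 to 6.86 RPKM (median 5.43). Its fold was 1.13 in RNA (limma adjusted p = 0.176) and 1.16 in RPF (limma adjusted p = 0.193). The highest RNA timepoint was ZT10, with 8.83 and 11.1 RPKM, so its 2 pools differed by about as much as the timepoints did. TE had no called rhythm for either receptor, with limma adjusted p = 0.261 for Nr3c1 and 0.726 for Nr3c2.

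Of the enzymes, Hsd11b2 (chr8:105518755-105523988, plus strand) showed a transcript rhythm that its footprints did not follow. Its RNA stood at 105.2 and 102.6 RPKM at ZT00 and at 94.5 and 98.3 RPKM at ZT02. It fell to 56.3 and 46.5 RPKM at ZT18 and to 41.3 and 51.3 RPKM at ZT20. The pools of ZT00 to ZT08 (81.2 to 105.2 RPKM) all lay above those of ZT12 to ZT22 (41.3 to 70.3 RPKM), and the 2 pools of ZT10 fell apart, at 90.4 and 52.2 RPKM. The fitted RNA fold was 1.77, with the peak at 5.06 h (limma adjusted p = 0.000819), and the call was lost on replicate 2 alone, at a fold of 1.73 (limma adjusted p = 0.0661).

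Hsd11b2 footprints ran from 159.6 RPKM at ZT10 replicate 2 to 259.8 RPKM at ZT20 replicate 2, with a median of 214.2 RPKM. At ZT00 they were 188.9 and 214.0 RPKM, and at ZT20 they were 203.7 and 259.8 RPKM, so the pools of the 2 times overlapped. The fitted RPF fold was 1.19 with the peak at 18.5 h, below the fold cutoff (limma adjusted p = 0.0284).

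TE of Hsd11b2 accordingly rose through the day, from 1.80 and 2.09 at ZT00 to 3.38 and 3.99 at ZT12 and to 4.93 and 5.06 at ZT20. Its TE rhythm was 2.08-fold with the peak at 17.4 h (limma adjusted p = 0.00138), rank 76 of the 11863 genes by p. A call in RNA and TE without a call in RPF was made for 2.38% of all genes tested. The largest step between neighbouring timepoints was the one that closes the cycle. From ZT22 to ZT00 its TE fell 2.32-fold and its RNA rose 2.02-fold, while footprints moved by 1.15-fold.

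Hsd11b1 (chr1:193221634-193264075, minus strand) had its highest RNA late in the dark phase, with 275.3 and 251.7 RPKM at ZT20 and 235.8 and 283.6 RPKM at ZT18. On average it was lowest at ZT08 (164.8 and 153.9 RPKM) and ZT10 (169.7 and 149.5 RPKM), and these times did not overlap with ZT18 to ZT22. The fitted fold of 1.497 fell just under the cutoff at an adjusted p of 0.000239 in limma, with the peak at 20.3 h. The gene was called with 12-h terms added (1.55-fold) and with timepoint as a factor (1.65-fold). It was also called on replicate 2 alone, at 1.58-fold (limma adjusted p = 0.0278).

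Hsd11b1 footprints were highest at ZT00, with 336.0 and 256.1 RPKM, and lowest at ZT16, with 196.2 and 149.1 RPKM. The RPF fold was 1.33 with the peak at 23.7 h (limma adjusted p = 0.0222). TE fell from 1.28 and 1.53 at ZT04 to 0.978 and 0.883 at ZT20, the opposite direction to Hsd11b2. The TE rhythm was 1.36-fold with the peak at 5.38 h (limma adjusted p = 0.00736). The summed RNA level of the proximal tubule markers, most of it Kap, also peaked in the dark phase, at 19.0 h with a 1.39-fold rhythm. Single proximal tubule markers peaked from 6.14 h (Slc22a7) to 22.1 h (Lrp2), with Slc34a1 at 10.2 h. The part of these markers in the Hsd11b1 values was not tested. The summed RNA of the principal cell markers, which label the collecting duct cells where Hsd11b2 is known to act, peaked at 14.1 h with a 1.52-fold rhythm, and single markers peaked from 11.1 h (Aqp3) to 20.4 h (Avpr2). Their part in the Hsd11b2 values was not tested.

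**Figure D3:**
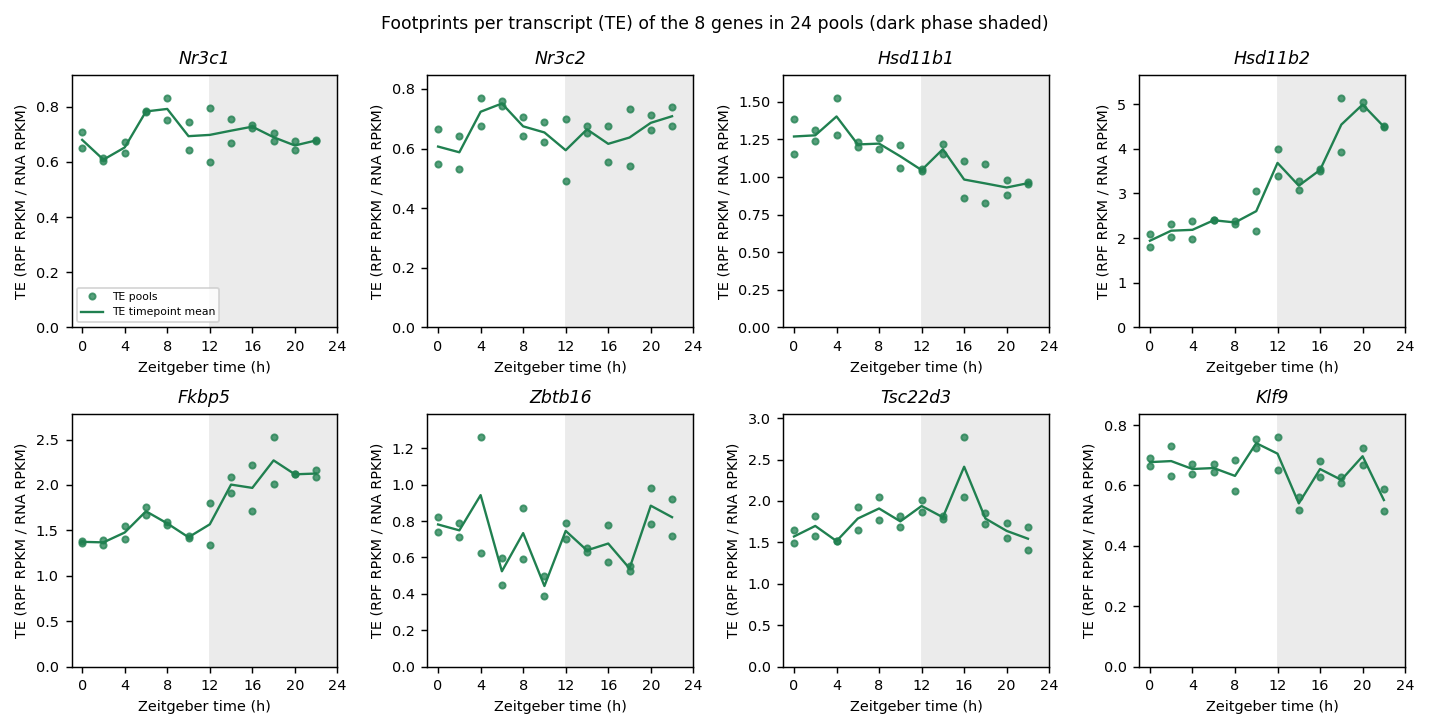
TE (RPF RPKM divided by RNA RPKM) of the 8 genes against Zeitgeber time in hours, with a point for each of the 24 pools, a line through the timepoint means and the dark phase shaded. TE of Hsd11b2 climbs from a mean of 1.94 at ZT00 to 5.00 at ZT20, TE of Fkbp5 from 1.37 at ZT02 to 2.27 at ZT18, and TE of Hsd11b1 declines from 1.40 at ZT04 to 0.93 at ZT20.

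The TE values have to be read beside a difference between libraries that followed coding GC content. In each library the median deviation of genes in the highest GC quintile was set against that of the lowest quintile on the log2 scale. In RNA it ranged from -0.36 (ZT12 replicate 2) to 0.44 (ZT08 replicate 1) and averaged 0.14 over ZT04 to ZT14 and -0.14 over ZT16 to ZT02. In RPF these means were -0.02 and 0.02. Among genes called in TE, 11.5% of the 573 in the lowest GC quintile peaked in the dark phase, against 80.4% of the 434 in the highest quintile. Hsd11b2 has a coding GC content of 60.1% (89.5th percentile of the genes tested), Tsc22d3 59.4%, Fkbp5 50.4% and Hsd11b1 48.2%.

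After each library's dependence on GC was removed, an alternative added after the data were seen, the genes called in TE fell from 2028 to 1174 (9.9% of those tested). The same 4 of the 8 genes were called, with folds of 1.96 for Hsd11b2 (limma adjusted p = 0.00199), 1.51 for Fkbp5, 1.36 for Tsc22d3 and 1.32 for Hsd11b1. The 3 genes called in RNA and the 3 called in RPF were also called after the correction, where 8.03% and 7.65% of all genes tested were, with Hsd11b2 RNA at 1.62-fold (limma adjusted p = 0.00251).

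With the pools of 1 replicate number alone, none of the 8 genes kept its TE call. On replicate 2 alone, limma called 0 genes in TE of the 11863, although 1858 had an unadjusted p under 0.05, and on replicate 1 alone it called 2. The Hsd11b2 TE fold was 2.08 on replicate 2 alone and 2.09 on replicate 1 alone, close to the fold over all pools. With timepoint as a factor, Hsd11b2 was called in TE (2.58-fold, limma adjusted p = 0.00763) and Fkbp5, Hsd11b1 and Tsc22d3 were not (limma adjusted p = 0.0522, 0.134 and 0.172), when 101 genes were called in all.

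**Figure D4:**
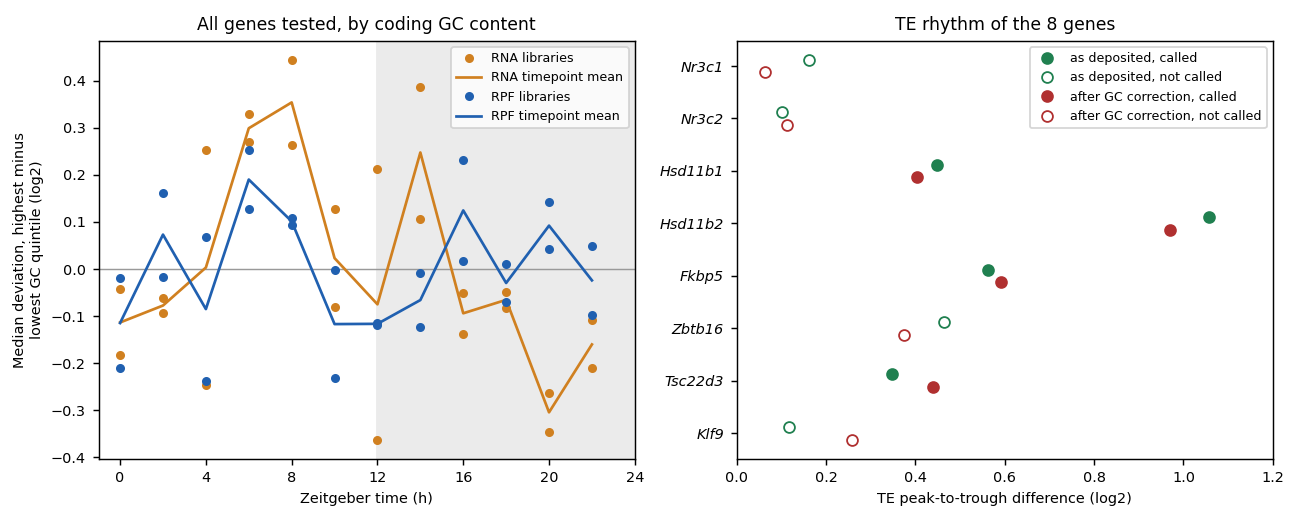
Left, the median log2 deviation of the highest GC quintile minus that of the lowest GC quintile in each library against Zeitgeber time in hours, for RNA (orange) and RPF (blue), with lines through timepoint means. Right, the TE peak-to-trough difference (log2) of each gene before (green) and after (red) the GC correction, filled where called; Hsd11b2, Fkbp5, Tsc22d3 and Hsd11b1 are filled in both.

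Among the hormone-induced genes, Tsc22d3 (chrX:140539528-140600659, minus strand) had the most marked rhythm of the 8. It encodes GILZ, a glucocorticoid-induced leucine zipper protein that in the kidney is also linked to aldosterone action. Its RNA was 24.3 and 21.8 RPKM at ZT04 and 21.2 and 27.0 RPKM at ZT06, and rose to 89.8 and 93.7 RPKM at ZT12 and 109.1 and 119.1 RPKM at ZT14. Footprints rose from 36.8 and 33.0 RPKM at ZT04 to 217.5 and 240.3 RPKM at ZT16. Trough and crest did not overlap in either assay.

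The fitted fold of Tsc22d3 was 4.37 in RNA (peak 15.7 h, limma adjusted p = 1.46e-12) and 5.33 in RPF (peak 15.4 h, limma adjusted p = 2.72e-12). Both calls were kept in all 24 fits that left out a pool. By p, the gene ranked 5 of 11863 in RNA and 4 of 11863 in RPF. Its TE ran from 1.40 at ZT22 replicate 1 to 2.78 at ZT16 replicate 2, with a fold of 1.27 and a peak at 13.3 h (limma adjusted p = 0.0413). That TE call was lost with 12-h terms added (limma adjusted p = 0.0862) and under quantile normalisation (limma adjusted p = 0.0529).

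Fkbp5 (chr17:28399094-28517527, minus strand) encodes a co-chaperone that binds the receptor complex and lowers its affinity for hormone, and the gene is itself induced by glucocorticoids. Its footprints were 61.9 and 72.3 RPKM at ZT06 and 62.95 and 64.9 RPKM at ZT04. They rose to 147.6 and 157.6 RPKM at ZT14 and 154.8 and 165.5 RPKM at ZT16, above every pool of the other times. The RPF rhythm was 2.01-fold with the peak at 16.1 h (limma adjusted p = 0.000153). A call in RPF and TE without a call in RNA, as for Fkbp5, was made for 1.03% of all genes tested. On replicate 2 alone the RPF fold was 2.05 and the call was lost (limma adjusted p = 0.0774).

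Fkbp5 RNA was 90.5 and 74.4 RPKM at ZT16 and 46.2 and 31.7 RPKM at ZT22, with a second, lower maximum of 51.5 and 67.7 RPKM at ZT00. The 24-h curve gave a 1.45-fold rhythm that was not called (limma adjusted p = 0.0542). With 12-h terms added it was 1.94-fold (limma adjusted p = 0.0013) and with timepoint as a factor 2.14-fold (limma adjusted p = 0.00778), both called. TE of Fkbp5 was 1.34 and 1.39 at ZT02 and 2.01 and 2.53 at ZT18, a 1.48-fold rhythm with the peak at 17.7 h (limma adjusted p = 0.00761). Its TE stayed at 2.16 and 2.09 at ZT22 and stood at 1.39 and 1.36 at ZT00, its largest step between neighbouring timepoints. The same was true of Hsd11b1 TE, which rose 1.32-fold from ZT22 to ZT00. Of all genes called in TE, 20.7% had their largest step there, as did 9.8% of all genes tested.

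Zbtb16 (chr9:48654297-48836222, minus strand) encodes the zinc finger transcription factor PLZF, a known glucocorticoid-induced gene. It was the least abundant of the 8, with RNA from 1.79 to 12.9 RPKM and footprints from 0.805 to 9.76 RPKM. RNA was 5.38 and 3.58 RPKM at ZT10, rose to 10.8 and 12.4 RPKM at ZT12 and 12.9 and 11.1 RPKM at ZT14, and was back at 6.03 and 6.56 RPKM at ZT16. The 4 pools of ZT12 and ZT14 were the 4 highest in RNA and in RPF. The fitted fold was 3.31 in RNA (peak 13.4 h, limma adjusted p = 0.000171) and 2.55 in RPF (peak 14.1 h, limma adjusted p = 0.0193). The replicate SD was 1.42-fold in RNA and 1.46-fold in RPF, the widest of the 8 genes. On either replicate alone the RPF call was lost while the fold was of like size, 2.91 on replicate 2 (limma adjusted p = 0.0824) and 2.43 on replicate 1 (limma adjusted p = 0.242). TE of Zbtb16 was not called (1.38-fold, limma adjusted p = 0.168).

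Klf9 (chr19:23141226-23168134, plus strand) encodes a Krüppel-like factor that responds to glucocorticoids and to the clock. Unlike the other 3 hormone-induced genes it was highest in the light phase. RNA was 137.4 and 143.8 RPKM at ZT06 and 97.1 and 102.4 RPKM at ZT00, and footprints were 110.0 and 86.7 RPKM at ZT10 and 56.4 and 67.6 RPKM at ZT14. Neither pair of times overlapped. The folds of 1.28 in RNA (peak 8.01 h, limma adjusted p = 0.00519) and 1.38 in RPF (peak 7.69 h, limma adjusted p = 0.00338) were under the cutoff. Klf9 has a coding GC content of 59.2%, and after GC correction its RNA fold was 1.11 (limma adjusted p = 0.243) and its RPF fold 1.33 (limma adjusted p = 0.00513).

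The peak times of called genes were compared through the 24-h curves, with intervals from the fit over 24 pools. In RNA, Zbtb16 peaked before Tsc22d3 on the 24-h curves (difference -2.32 h, 95% interval -3.73 to -0.908 h). Read from a curve with 24-h and 12-h terms the difference was -0.98 h, and both genes had their highest RNA timepoint mean at ZT14. Hsd11b2 peaked before Zbtb16 (difference -8.36 h, interval -10.7 to -5.98 h) and before Tsc22d3 (difference -10.7 h, interval -12.6 to -8.78 h). In RPF, Zbtb16 minus Tsc22d3 was -1.304 h (interval -3.53 to 0.917 h). Fkbp5 minus Tsc22d3 was 0.736 h (interval -0.482 to 1.95 h) and Fkbp5 minus Zbtb16 was 2.04 h (interval -0.281 to 4.36 h), so the order of the 3 footprint peaks was not resolved. Footprints peaked 0.682 h after RNA for Zbtb16 (interval -0.627 to 1.99 h) and before RNA for Tsc22d3 (RPF minus RNA, -0.332 h, interval -0.667 to 0.0026 h), both intervals including 0. With 12-h terms added the Tsc22d3 difference was 0.17 h, of the opposite sign.

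Promoter windows are shown for Fkbp5 and Tsc22d3, whose footprints crested together, because these hold a letter match to an element known from hormone or clock control. The windows are the 250 bases before an annotated start in RefSeq (GRCm38.p6), and 7 windows of 5 of the 8 genes were searched. Both strands were searched for the core AGAACA of the glucocorticoid response element, the full element (AGAACA, any 3 bases and its reverse complement, which holds the core), the E-box CACGTG and the D-box TTATGTAA. Capitals mark the match, the E-box in Fkbp5 (chr17:28486150-28486399, minus strand) and the core on the opposite strand, read as TGTTCT, in Tsc22d3 (chrX:140600523-140600772, minus strand).
Fkbp5: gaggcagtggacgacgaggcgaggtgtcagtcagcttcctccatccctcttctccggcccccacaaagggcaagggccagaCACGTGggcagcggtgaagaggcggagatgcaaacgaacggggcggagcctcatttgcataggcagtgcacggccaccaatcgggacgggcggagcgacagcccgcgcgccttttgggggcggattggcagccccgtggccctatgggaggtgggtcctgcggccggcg
Tsc22d3: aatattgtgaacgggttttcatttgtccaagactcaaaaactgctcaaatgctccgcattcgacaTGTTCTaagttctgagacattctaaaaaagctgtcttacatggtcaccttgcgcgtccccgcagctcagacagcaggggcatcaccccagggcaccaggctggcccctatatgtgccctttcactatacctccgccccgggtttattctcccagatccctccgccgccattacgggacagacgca
The E-box begins 169 bases before the start of Fkbp5, and the core begins 185 bases before this start of Tsc22d3. Of 32851 windows of the same length, 6.02% hold the E-box, 16.1% the core, 0.819% the D-box and 0.00913% the full element. The windows of Hsd11b1, Klf9 and Nr3c2 and the other 2 of Tsc22d3 hold none of these letters. No window of Hsd11b2, Zbtb16 or Nr3c1 was searched, so the presence of these letters before their starts was not tested.

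The levels of the 8 genes, compared per kilobase of coding sequence, spanned from Zbtb16 to Hsd11b1. In RNA the order of means was Hsd11b1 (205.8 ± 40.3 RPKM, SD, n = 24), Klf9 (117.7 ± 15.9), Hsd11b2 (74.1 ± 20.6), Tsc22d3 (60.3 ± 31.0), Fkbp5 (54.5 ± 15.2), Nr3c1 (49.5 ± 4.10), Nr3c2 (8.37 ± 0.874) and Zbtb16 (5.34 ± 3.31). Neighbours were compared by a two-sided permutation test that reversed the sign of the within-library log2 difference 100000 times. The neighbours Hsd11b2 and Tsc22d3 (permutation test, adjusted p = 0.0897), Tsc22d3 and Fkbp5 (0.999), and Fkbp5 and Nr3c1 (0.369) were not separated. That result does not mean equal levels at a given time. Mean RNA of Hsd11b2 and Tsc22d3 was 103.9 and 42.6 RPKM at ZT00, and 70.0 and 114.1 RPKM at ZT14. The other 4 pairs of neighbours were, with Nr3c1 above Nr3c2 in 24 of 24 libraries and Nr3c2 above Zbtb16 in 20 of 24 (permutation test, adjusted p = 0.00014).

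In RPF the order was Hsd11b1 (229.6 ± 39.4 RPKM, SD, n = 24), Hsd11b2 (215.4 ± 21.97), Tsc22d3 (110.8 ± 65.8), Fkbp5 (94.99 ± 33.0), Klf9 (76.5 ± 13.3), Nr3c1 (34.4 ± 2.51), Nr3c2 (5.49 ± 0.649) and Zbtb16 (3.67 ± 2.35). Hsd11b2 thus stood directly below Hsd11b1 in footprints, and that pair was not separated (permutation test, adjusted p = 0.254, higher in 16 of 24 libraries). Nor were Tsc22d3 and Fkbp5 (0.748) or Fkbp5 and Klf9 (0.0673). Since libraries are spread over the day, they are not replicates of the same condition. The comparisons of levels in both assays hold for the daily mean only.

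TE differed widely among the 8. The mean over 24 pools was 3.17 ± 1.07 (SD) for Hsd11b2, 1.78 ± 0.275 for Tsc22d3, 1.75 ± 0.349 for Fkbp5 and 1.13 ± 0.171 for Hsd11b1. It was 0.707 ± 0.19 for Zbtb16, 0.698 ± 0.0641 for Nr3c1, 0.659 ± 0.0765 for Nr3c2 and 0.651 ± 0.0664 for Klf9. On the ratio of mean values, the median of all genes tested was 0.956, and Hsd11b2 at 2.91 lay at their 99.3rd percentile. Tsc22d3 lay at the 92.7th and Fkbp5 at the 90.8th percentile, while the 4 receptor and transcription factor genes Nr3c1, Nr3c2, Zbtb16 and Klf9 lay between the 27.8th and 31.0th.

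For each gene called in RNA, the 3 genes with the most similar RNA profile over the 24 libraries were found by Pearson's r, as a description of libraries that share time, depth and base composition. Tsc22d3 was most like the clock gene Per2 (r = 0.929 in RNA and 0.942 in RPF), the adrenergic receptor gene Adra2b (0.928 and 0.901) and the adenylate kinase gene Ak4 (0.907 and 0.934). Zbtb16 was most like the kinase gene Map3k6 (0.848 in RNA and 0.675 in RPF), the organic anion transporter gene Slco2b1 (0.847 and 0.581) and Lpin1, a lipid metabolism gene (0.839 and 0.606). Hsd11b2 was most like Actn4, an actin crosslinker gene (0.952 in RNA and 0.651 in RPF), and the mitochondrial enzyme genes Mdh2 (0.941 and -0.0445) and Dlst (0.927 and 0.353). The RNA folds of these last 3 genes were 1.42, 1.32 and 1.21, and their RPF folds were 1.096, 1.05 and 1.04. Since these genes were chosen for a high r in RNA, a lower r in RPF can follow from the choice alone.

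Other genes of the pathway were grouped in 5 lists, with the 8 genes left out. Of 15 receptor chaperone genes, which fold and hold the receptors, 7 were called in RNA and 7 in RPF, all with peaks in the dark phase, and 6 in both. The median fold was 1.47 in RNA and in RPF, beside 1.205 and 1.177 over all genes tested, of which 3.7% and 3.16% were called with a peak in the dark phase. Hsp90aa1, the inducible HSP90, had a 2.07-fold RNA rhythm peaking at 20.3 h (limma adjusted p = 8.37e-07) and a 1.82-fold RPF rhythm. Dnajb1, an HSP40 (RNA 1.91-fold, peak 16.3 h), and Hspa8, the constitutive HSC70 (RNA 1.84-fold, peak 16.1 h), peaked earlier in the night. In TE, 3 of the 15 were called, beside 17.1% of all genes tested.

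Receptor coregulator genes, which help the receptors switch target genes on or off, varied little as a list. In RPF limma called 0 of the 18 coregulator genes, 7 having an unadjusted p under 0.05. Of all genes tested 7.58% were called in RPF, and a count of 0 in 18 lies near that share. The median fold of the 18 was 1.14 in RNA and 1.12 in RPF, beside 1.205 and 1.177 over all genes tested.

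Of 34 other glucocorticoid-induced genes tested, 17 were called in RNA (8 with a peak in the dark phase and 9 in the light phase), 12 in RPF (8 in the dark phase and 4 in the light phase) and 9 in TE (17.1% of all genes tested). The median fold was 1.61 in RNA and 1.39 in RPF. Of all genes tested, 10.2% were called in RNA, 3.7% with a peak in the dark phase and 6.5% in the light phase. In RPF 7.58% were called, 3.16% with a peak in the dark phase and 4.42% in the light phase. Per1, a clock gene with glucocorticoid response elements, had a 4.21-fold RNA rhythm peaking at 12.3 h (limma adjusted p = 2.13e-08) and a 4.45-fold RPF rhythm. Sgk1, the kinase that links corticosteroids to sodium channels, had a 2.64-fold RNA rhythm peaking at 15.98 h (limma adjusted p = 2.95e-07) and a 2.43-fold RPF rhythm peaking at 15.7 h, close to Tsc22d3. Rasd1, which encodes a dexamethasone-induced Ras protein, had a 3.65-fold RNA rhythm peaking at 6.57 h (limma adjusted p = 5.27e-05), a footprint fold of 1.36 (limma adjusted p = 0.358) and a TE rhythm of 2.68-fold peaking at 18.5 h (limma adjusted p = 0.0077).

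Of 18 aldosterone-regulated sodium transport genes, 4 were called in RNA and 3 in RPF, all with peaks in the dark phase (3.7% and 3.16% of all genes tested), and 5 in TE (17.1% of all genes tested). Per1 and Sgk1 are in this list too, and the remaining named gene is Usp2, a deubiquitinase (RNA 2.09-fold, peak 12.5 h, limma adjusted p = 4.02e-09, and RPF 2.11-fold). The other gene called in RNA was Prss8, a channel-activating protease (RNA 1.55-fold, peak 12.5 h), which was outside the naming rule and was chosen after its values were seen. The median fold was 1.26 in RNA and 1.19 in RPF.

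Of 11 steroid-metabolising and transport genes tested, 2 were called in RNA and 2 in RPF, beside 10.2% and 7.58% of all genes tested. Srd5a2, a steroid reductase gene, had a 1.88-fold RNA rhythm peaking at 21.5 h (limma adjusted p = 0.00082) and a 1.82-fold RPF rhythm. Por, the electron donor of cytochromes P450, was called in RNA alone (1.51-fold, peak 11.1 h), and Srd5a1 in RPF alone (1.502-fold, peak 8.87 h). Limma called 0 of the 11 in TE, beside 17.1% of all genes tested, 2 of the 11 having an unadjusted p under 0.05. H6pd, which supplies the cofactor for the enzyme of Hsd11b1, had a 1.24-fold RNA difference peaking at 5.68 h and was not called, and it too was named after its values were seen.

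**Figure D5:**
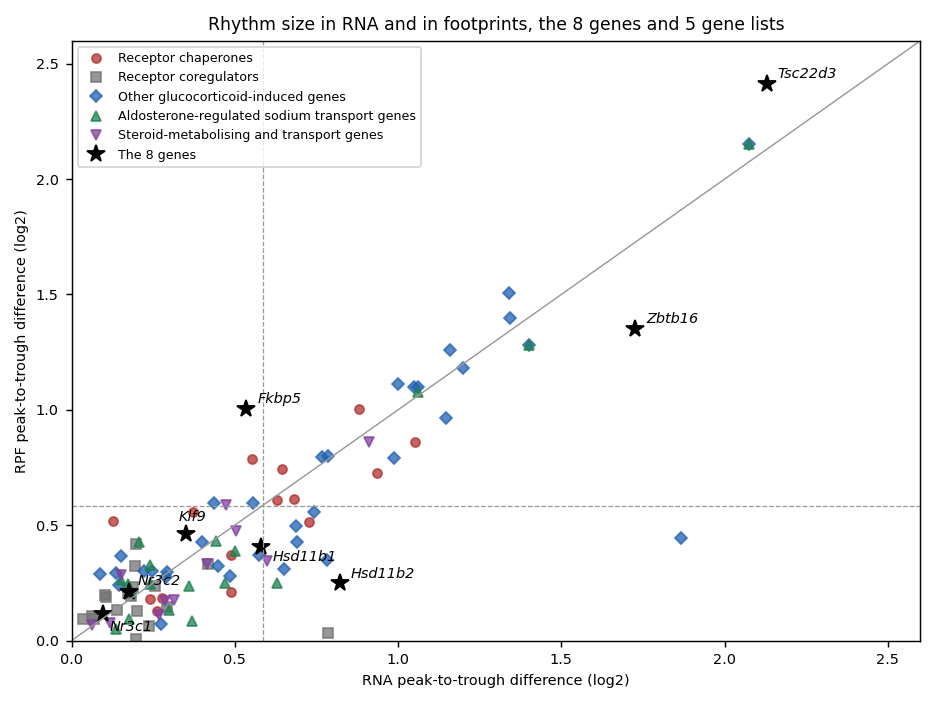
Fitted peak-to-trough difference (log2) in RNA (horizontal axis) and in RPF (vertical axis) for the 8 genes (stars) and the genes of 5 lists (coloured symbols), with the diagonal of equal size and dashed lines at 1.5-fold. Tsc22d3 and Zbtb16 lie at the upper right with Per1 (both lists), Fkbp5 lies above the diagonal, and Hsd11b2 lies below it, as does Rasd1.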

How the data were processed

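The authors deposited 1 table per library with RPKM values per gene over the coding sequence. Per the labels and the study's methods, reads were trimmed with cutadapt, mapped with Bowtie2 2.2.1 and TopHat2 2.0.11 to mouse (GRCm38.p2), with transcript models from Cufflinks 2.2.1 and upper-quantile scaling in edgeR, and weakly expressed genes were removed. Upper quartiles (36.4 to 39.3 RPKM) are therefore nearly equal, and a change in total RNA cannot be seen. From there, log2(RPKM + 0.1) of the 11863 genes with a median of at least 0.5 RPKM in both assays was fitted with limma 3.58.1 (R 4.3.3, variance trend) and adjusted over all genes. TE was fitted as the within-pool log2 ratio. The procedure was tested on simulated data with independent noise for each gene. Those data held no difference between libraries shared by many genes, such as that with GC content. The simulation therefore cannot show how such a difference affects the calls. Pools are separate animals. Gene coordinates, coding length and GC content are from GENCODE vM21 on GRCm38. Depth assumes that low values are whole reads (88.0% to 92.7% of the 150 lowest values per RNA library, and 84.7% to 91.3% per RPF library, lay within 0.03 of a whole read). The 8 genes, lists and tests were chosen with earlier results of these data known. Named list genes are up to 3 per list with a called rhythm and the largest RNA fold. Alternatives covered pseudocounts, filters, normalisation, curve shape, replicates and GC. Liver was not analysed here, and the result of 1 list gene is not reported here.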

Additional observations from a re-analysis of the deposited data

Results flagged for a closer look

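The 4 values below are listed here because the daily course of transcripts and footprints differed by a test of the difference itself, made on the within-pool ratio (limma, adjusted over 11863 genes). The difference was 2.08-fold for Hsd11b2 (footprints per transcript highest at 17.4 h, adjusted p = 0.00138), 1.48-fold for Fkbp5 (17.7 h, adjusted p = 0.00761), 1.36-fold for Hsd11b1 (5.38 h, adjusted p = 0.00736) and 1.27-fold for Tsc22d3 (13.3 h, adjusted p = 0.0413). A difference of this kind was called for 17.1% of the genes tested. The 5 highest TE values of Hsd11b2 came from ZT18 replicate 2 and the pools of ZT20 and ZT22, and the RNA libraries of ZT18 to ZT22 were shallow, at 0.598 to 0.833 of the median depth. The part of depth in these values was not tested.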

How the results depend on the processing

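Of the 8 genes, 3 were called in RNA, 3 in RPF and 4 in TE. The numbers became 5 in RNA with 12-h terms added or timepoint as a factor (Hsd11b1 and Fkbp5 added), and 1 in TE with timepoint as a factor (Hsd11b2, adjusted p = 0.00763, when 101 genes were called in all). With pools left out they ran from 3 to 5 in RNA, from 1 to 3 in RPF and from 0 to 4 in TE, where the lowest values were those of a single replicate number. The 8 genes again gave 3, 3 and 4 calls under other pseudocounts, RPKM minimums, no variance trend and the 3 GC corrections. The AIC choice, made for RNA and RPF only, also called 3 of the 8 in each. In fits without 1 pool, Fkbp5 RNA was called without ZT00 replicate 2, ZT02 replicate 1, ZT02 replicate 2 or ZT12 replicate 1 (fold up to 1.55). Hsd11b1 RNA was called in 10 of these 24 fits, at up to 1.53-fold, those without a pool of ZT02, ZT06, ZT12 or ZT16 or without replicate 2 of ZT00 or ZT04. Tsc22d3 TE was called in 10 of the 24 fits (adjusted p = 0.0306 to 0.0653), being lost without either pool of ZT04, ZT08, ZT12, ZT20 or ZT22, without replicate 1 of ZT00, ZT06 or ZT16 or without ZT02 replicate 2. A rhythm of Klf9 in RPF passed the rule on replicate 1 alone (1.55-fold, adjusted p = 0.0175) and of Hsd11b1 in RPF with timepoint as a factor (1.71-fold, adjusted p = 0.0443). Of all genes tested, the number called was 781 in RNA and 590 in RPF with a pseudocount of 1, 2291 in RNA with timepoint as a factor, and on replicate 2 alone 722 in RNA, 370 in RPF and 0 in TE (1858 at an unadjusted p under 0.05), against 1210, 899 and 2028. The cause of these changes was not tested, but the single-replicate fits have fewer samples. Replicate numbers did not pair the samples (correlations of deviations between timepoints from -0.18 to 0.48 in RNA), and a replicate block gave 1214, 895 and 2161 genes and again 3, 3 and 4 of the 8, the calls of all 8 unchanged. The separated neighbours in the order of levels were 4 in each assay under every alternative, and all 24 alternatives of TE levels moved the mean by less than the SD over pools. Peak differences read from a curve with 12-h terms moved by more than their SE for Tsc22d3 RPF minus RNA (-0.332 to 0.17 h), Zbtb16 minus Tsc22d3 in RNA (-2.32 to -0.98 h) and Hsd11b2 minus Zbtb16 in RNA (-8.36 to -10.26 h). On a single replicate number, RPF minus RNA ran from -0.07 to 1.56 h for Zbtb16 and from -0.522 to -0.138 h for Tsc22d3. In RPF, Fkbp5 minus Zbtb16 ran from 0.379 to 3.47 h and Zbtb16 minus Tsc22d3 from -2.31 to -0.0844 h, while in RNA Hsd11b2 minus Tsc22d3 ran from -11.6 to -9.9 h. Depth limits Zbtb16 most, whose lowest libraries held about 47 reads in RNA and 50 in RPF.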

Other observations

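Hsd11b2 and Rasd1 shared a transcript peak in the light phase (5.06 and 6.57 h), a footprint fold under the cutoff (1.19 and 1.36) and a TE peak in the dark phase (17.4 and 18.5 h). They were set side by side after their values were seen. Since TE is the footprint value divided by the transcript value, the third trait follows from the first 2. A call in RNA and TE without a call in RPF was made for 2.38% of all genes tested. The summed RNA level of 3 podocyte markers peaked at 3.99 h with a 1.25-fold rhythm and that of 3 thick ascending limb markers at 16.7 h with a 1.23-fold rhythm.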
